A study of Drosophila melanogaster with 12 samples.

Results

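Mitochondrial ribosomal proteins are encoded in the nucleus, made in the cytosol and imported into the mitochondrion, where they join ribosomal RNAs of the mitochondrial genome to form a large and a small subunit. The finished ribosome translates the few mRNAs of the mitochondrial genome, which encode subunits of the respiratory chain and of ATP synthase. In the fly ovary, mitochondria multiply in the early germline and are passed to the oocyte, and in the testis they later fuse into the body that runs along the sperm tail. The genes described here are those of Drosophila melanogaster whose FlyBase symbol starts with mRpL (large subunit) or mRpS (small subunit). The gene name table holds 73 such symbols, and 71 of them had an identifier among the 17559 genes counted, 47 mRpL and 24 mRpS. The other 2, mRpS5 and mRpS34, were not analysed here. The symbol gives the subunit in the older naming: the mammalian counterparts of mRpS30 and mRpS18A lie in the large subunit. Of the 71 genes, 60 are on the arms of the autosomes and 11 on the X chromosome.

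RNA was measured in dissected gonads of flies 1 to 3 days old and raised at 25 °C, in 12 libraries of polyadenylated RNA. All flies were mutant for bam, a gene that germ cells need to differentiate, so their gonads hold mostly early germ cells beside somatic cells. Whether the germ cells of testes and ovaries had stopped at the same stage was not tested. The 4 groups of 3 biological replicates each were ovaries of bam mutant females, testes of bam mutant males, ovaries of bam mutant females with RNA interference (RNAi) against mCherry, a fluorescent protein gene that flies lack, and ovaries of bam mutant females with RNAi against Sxl, the RNA-binding switch gene of female identity. Ovaries came from virgin females, and the labels give neither the bam allele nor the driver of the RNAi, so the cells in which it acted are not stated. Between 16152230 and 25097969 reads per library were assigned to genes.

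The target of the RNAi followed the labels. Sxl RNA stood at 139 to 224 CPM in Sxl RNAi ovaries against 494 to 536 CPM in mCherry RNAi ovaries, where CPM are counts per 1000000 assigned reads after scaling (log2 fold change -1.44, SE 0.18, edgeR quasi-likelihood test with Benjamini-Hochberg adjustment over all genes, adjusted p = 0.0466). Germ cell markers were present in all groups, with a summed level of 924 to 1560 CPM over the 5 of 7 listed genes that matched. Other cell types differed in share: the 14 matched muscle markers summed to 9450 to 13200 CPM in bam ovaries, 1360 to 1750 in bam testes, 13800 to 17400 in mCherry RNAi ovaries and 12400 to 21100 in Sxl RNAi ovaries. The 8 follicle cell, yolk and eggshell markers summed to 6260 to 7090 CPM in bam ovaries, 28.4 to 45.1 in testes, 4080 to 5500 with mCherry RNAi and 3780 to 4130 with Sxl RNAi, and the 7 matched male accessory gland markers to 65.2 to 1690 CPM in testes. In whole gonads, fewer cells of a type and less RNA per cell cannot be told apart. The part of cell makeup in the differences below was not tested.

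Reads of the 71 genes together made up between 0.251% and 0.366% of the assigned reads of a library. The share was 0.298% ± 0.0367 in bam ovaries, 0.324% ± 0.0392 in bam testes, 0.264% ± 0.0144 in mCherry RNAi ovaries and 0.279% ± 0.0076 in Sxl RNAi ovaries (mean ± SD, n = 3). Testes and bam ovaries overlapped (exact two-sided permutation test, p = 0.5), as did Sxl RNAi and mCherry RNAi ovaries (p = 0.3) and mCherry RNAi and bam ovaries (p = 0.2, both exact permutation tests). Testes lay above mCherry RNAi ovaries in every library, and the exact permutation p of 0.1 is the smallest that 3 against 3 libraries allow. That separation was lost with TMM-scaled CPM summed over the genes, where the testes ranged from 2722 to 4520 and the mCherry RNAi ovaries from 2376 to 2897, and with genes of the mitochondrial genome left out of the total, where they ranged from 0.303% to 0.398% and from 0.264% to 0.306% (exact permutation p = 0.2 in both). For testes over bam ovaries, the log2 ratio of the means was 0.12 by share and 0.26 by TMM-scaled CPM (exact permutation p = 0.5 and 0.6). The balance of mRpL to mRpS RNA was compared by sums and by medians. The log2 ratio of the summed mRpL level to the summed mRpS level, each per kb of transcript, averaged between 1.08 and 1.09 in the 4 groups. Its size also reflects the number of genes, 46 detected mRpL and 24 mRpS. Genes were placed by symbol, so mRpS30 and mRpS18A counted as small subunit and proteins under other names were left out. Its differences between groups were at most 0.01 in size, with exact permutation p-values from 0.4 to 1.0. With the difference of median log2 levels in place of the sums, testes exceeded bam ovaries by 0.094 and mCherry RNAi ovaries by 0.085, with no overlap in either (exact permutation p = 0.1 for both, the smallest possible), so the result depended on the summary.

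Of the 71 genes, 70 passed the filter on low counts in every comparison. The exception, mRpL53, had 0 reads in all 12 libraries, which allows a share of up to 1.27e-06% of the 235946316 reads. All of its exon bases are shared with other genes in the annotation used here, CG33155 on the same strand and AGO1 on the other, so a count of 0 may not describe its RNA. Of the 71 genes, 42 share exon bases with another gene, and the library kit did not mark strand. Only mRpL53 and mRpS24 share over 50% of them; mRpS24 shares 55.3% with TBC1d7.

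Per kb of transcript, the levels of the 70 detected genes spanned 11.7-fold from highest to lowest, with a median of 49.9 CPM per kb over the 4 groups and quartiles of 41.8 and 56.6. The highest level was that of mRpL12, which forms the flexible stalk that engages translation factors, at 103 CPM per kb in bam ovaries, 142 in testes, 93.4 in mCherry RNAi ovaries and 86.3 in Sxl RNAi ovaries. It was followed by mRpL30 (mean over groups 74.1 CPM per kb), a protein with a bacterial counterpart, and by mRpL39 (68.8) and mRpS22 (67.2), which are particular to mitochondrial ribosomes. The lowest levels per kb were those of mRpS24 (9.04), mRpS21 (11.4), mRpL21 (17.9) and mRpL13 (27.8), all of which have bacterial counterparts. Of their exon bases, mRpS24 shares 55.3%, mRpS21 48.0% and mRpL13 35.2% with other genes, and the part of this overlap in their low values was not tested. mRpS24 and mRpS21 had 79 and 68 reads in their shallowest library. Most genes lay close together, so their order within the middle of the range is not resolved.

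**Figure D1:**
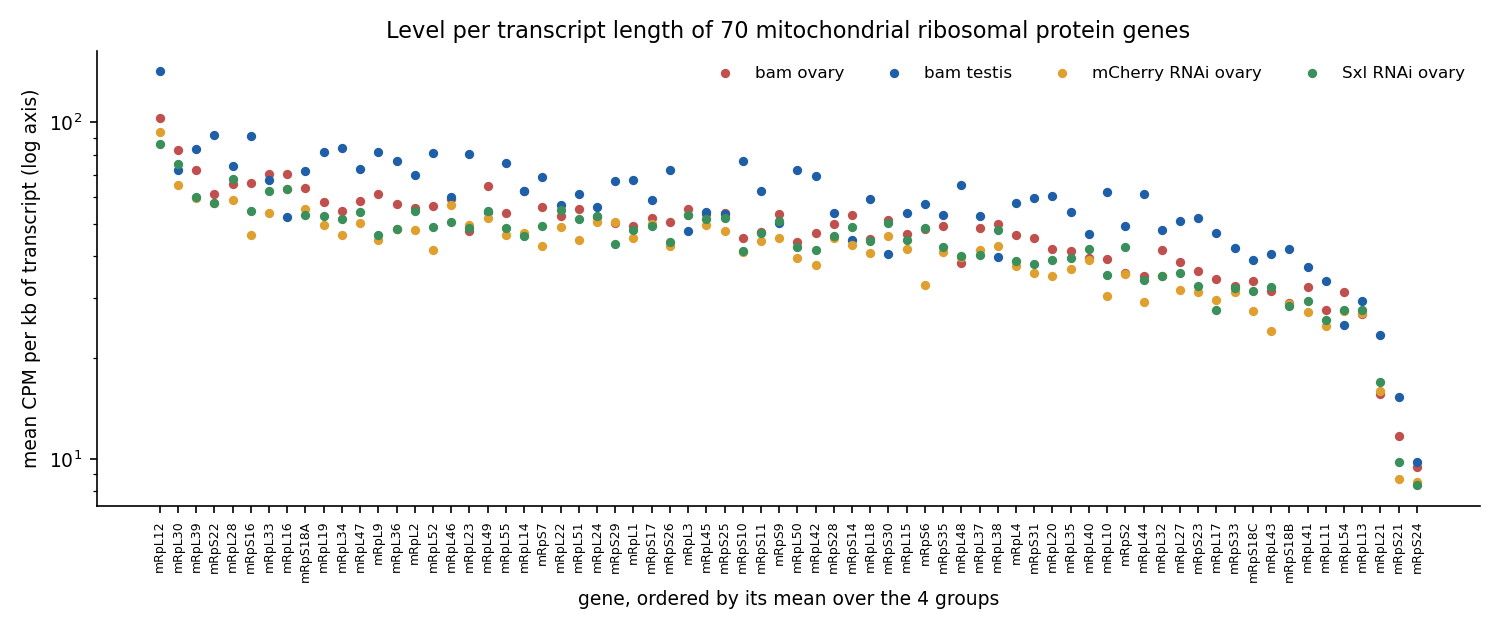
Mean level per kb of transcript (CPM per kb, log axis) of the 70 detected genes in each of the 4 groups (points, n = 3 libraries each), ordered by the mean over groups. The levels span 11.7-fold, mRpL12 is highest and mRpS24 lowest, and the testis points lie above the ovary points for most genes.

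The order of the 70 levels was more alike between ovaries than between ovary and testis. Spearman's rho of the level per kb was 0.917 to 0.931 between pairs of ovary groups and 0.603 to 0.677 between testes and each ovary group. These values are descriptions over genes that share libraries and a length divisor. The 3 genes related to bacterial S18, a small subunit protein, illustrate the spread within a family: mRpS18A stood at 64.1 CPM per kb in bam ovaries and 72.0 in testes, mRpS18B at 29.0 and 42.0, and mRpS18C at 33.7 and 39.1. None of the 3 passed the test between testes and bam ovaries (log2 fold changes 0.15, 0.52 and 0.19, adjusted p = 0.662, 0.0772 and 0.635 by edgeR).

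In 3 groups a single library held nearly all of the highest values. Of the 70 genes, 69 were highest in replicate 3 of the bam ovaries, 69 in replicate 2 of the bam testes and 65 in replicate 2 of the mCherry RNAi ovaries. Over all genes tested, 45.1%, 48.9% and 42.0% were highest there, and 74.7%, 78.7% and 64.9% of those with transcripts under 1000 nt. In the Sxl RNAi ovaries the highest values were spread over the replicates, with 17, 24 and 29 genes. The median gene stood above the mean of its group by 0.28, 0.41 and 0.18 on the log2 scale in those 3 libraries, and 0.35 below it in testis replicate 3. Genes with short transcripts did the same: over all genes with transcripts under 1000 nt, the median deviations were 0.24, 0.38 and 0.17 in the 3 libraries and -0.31 in testis replicate 3. The mitochondrial ribosomal protein genes are themselves short, with a median transcript of 778 nt against 1897 nt over all genes tested, and 49 of the 70 are under 1000 nt. What sets these libraries apart was not tested, and results are given below with and without them.

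**Figure D2:**
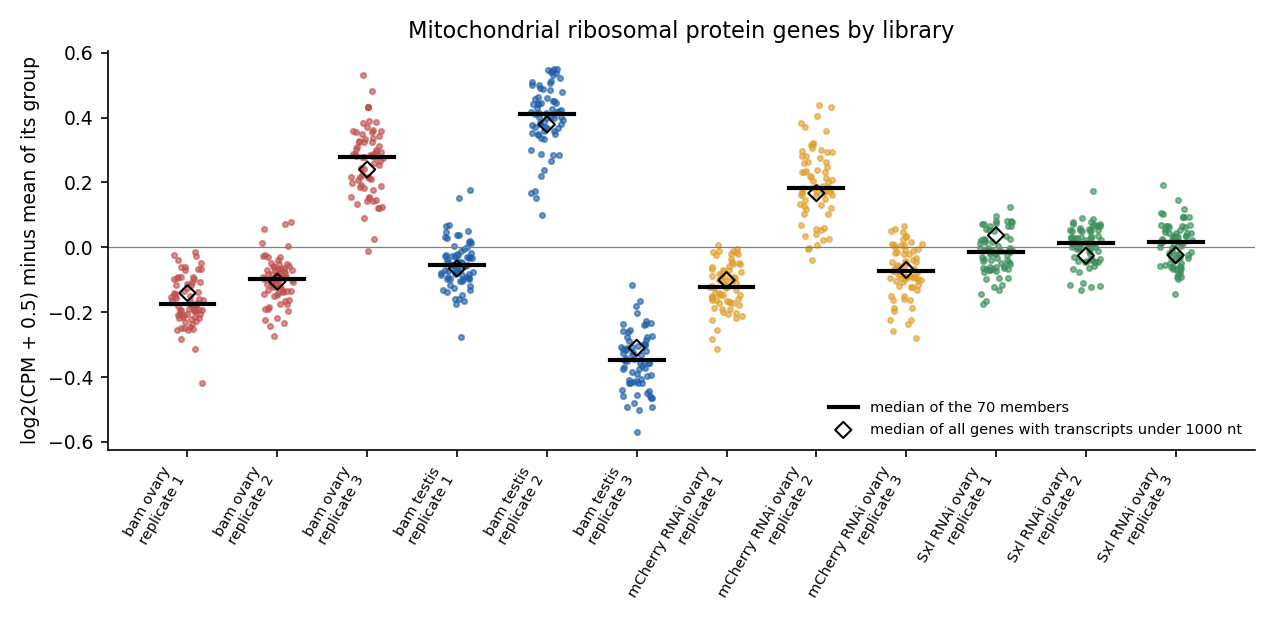
Deviation of each of the 70 genes from its group mean, on a log2(CPM + 0.5) scale, in each of the 12 libraries (points), with the median of the 70 genes (bar) and the median of all genes with transcripts under 1000 nt (diamond). The bars lie at 0.28, 0.41 and 0.18 in bam ovary replicate 3, bam testis replicate 2 and mCherry RNAi ovary replicate 2, and the diamonds follow them.

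The first comparison set male against female gonads in the bam mutant background. The fitted log2 fold change was positive, higher in testes, for 57 of the 70 genes, against 51.0% of all genes tested, and the median log2 fold change was 0.30 (46 mRpL genes 0.30, 24 mRpS genes 0.31) against 0.012 over all genes. Few of these differences exceeded the spread between replicates: 4 genes were higher in testes at an adjusted p under 0.05 in edgeR's quasi-likelihood test, or 5.71%, and 0 were lower. Over all 9738 genes tested the background was 32.7% called, 16.4% higher and 16.3% lower, so the share among these genes was below the background. The median SE of the 70 log2 fold changes was 0.22, and for 53 of them the 95% interval lay within 1 log2 unit of 0.

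The 4 genes that rose in testes were mRpL44, mRpL48, mRpL50 and mRpS10. mRpL44, at 3R:5469463-5470636 on the minus strand of BDGP6, encodes a large subunit protein with a ribonuclease III-like fold. It stood at 35.0, 39.3 and 43.7 CPM in the bam ovaries, 61.9, 94.5 and 50.4 in the testes, 31.6, 34.2 and 32.6 with mCherry RNAi and 36.5, 40.4 and 37.9 with Sxl RNAi. Every testis lay above every ovary, with replicate 2 highest among the testes. The log2 fold change of testes over bam ovaries was 0.79 (SE 0.22, adjusted p = 0.0367 by edgeR).

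mRpL48, at 2L:1710462-1711465 on the plus strand, encodes a large subunit protein that has no bacterial counterpart. It stood at 28.8, 28.2 and 33.4 CPM in bam ovaries, 45.1, 67.5 and 42.1 in testes, 28.9, 34.4 and 31.4 with mCherry RNAi and 30.3, 32.5 and 32.5 with Sxl RNAi. The 3 ovary groups lay side by side, and all testes were above them (log2 fold change over bam ovaries 0.76, SE 0.19, adjusted p = 0.0223 by edgeR). It shares 20.8% of its exon bases with frtz on the opposite strand.

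mRpS10, at 3R:15229665-15230516 on the plus strand, encodes a protein of the small subunit with a bacterial counterpart and shares no exon bases with another gene. It stood at 31.5, 31.5 and 38.2 CPM in bam ovaries, 51.8, 72.5 and 47.9 in testes, 29.7, 31.4 and 30.9 with mCherry RNAi and 30.8, 32.7 and 29.6 with Sxl RNAi. Again no testis overlapped an ovary (log2 fold change 0.75, SE 0.17, adjusted p = 0.0179 by edgeR). mRpL50, at 3L:7243080-7243933 on the minus strand, encodes a mitochondria-specific protein of the large subunit. It stood at 30.2, 30.6 and 37.2 CPM in bam ovaries, 49.9, 68.3 and 42.1 in testes, 29.1, 29.1 and 29.4 with mCherry RNAi and 28.0, 32.8 and 33.8 with Sxl RNAi. It too was higher in every testis than in every ovary (log2 fold change 0.69, SE 0.18, adjusted p = 0.0303 by edgeR).

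All 4 kept a positive sign under each of the 15 alternatives in which they were fitted, but none kept its call in all of them: mRpL44 and mRpL50 passed in 9 and mRpL48 and mRpS10 in 11. No gene of the 70 passed when bam ovary replicate 1, bam ovary replicate 2 or testis replicate 1 was left out. Without testis replicate 3, 10 passed, all higher. Over all genes, 930, 882, 1031 and 1717 were higher in these fits, against 1594 in the main fit. Across all single omissions the median log2 fold change of the 70 ranged from 0.096 (without testis replicate 2) to 0.45 (without bam ovary replicate 3). Without bam ovary replicate 3 and testis replicate 2 together, chosen once the data had been seen, 12 genes were higher and 2 lower, against 18.9% and 20.7% of all genes, and the median was 0.23. The 4 genes above were among the 12, and the 2 lower ones, named after their values were seen, were the X-linked mRpL16 (log2 fold change -0.55, adjusted p = 0.0411 by edgeR) and mRpL38 (-0.43, adjusted p = 0.0463).

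**Figure D3:**
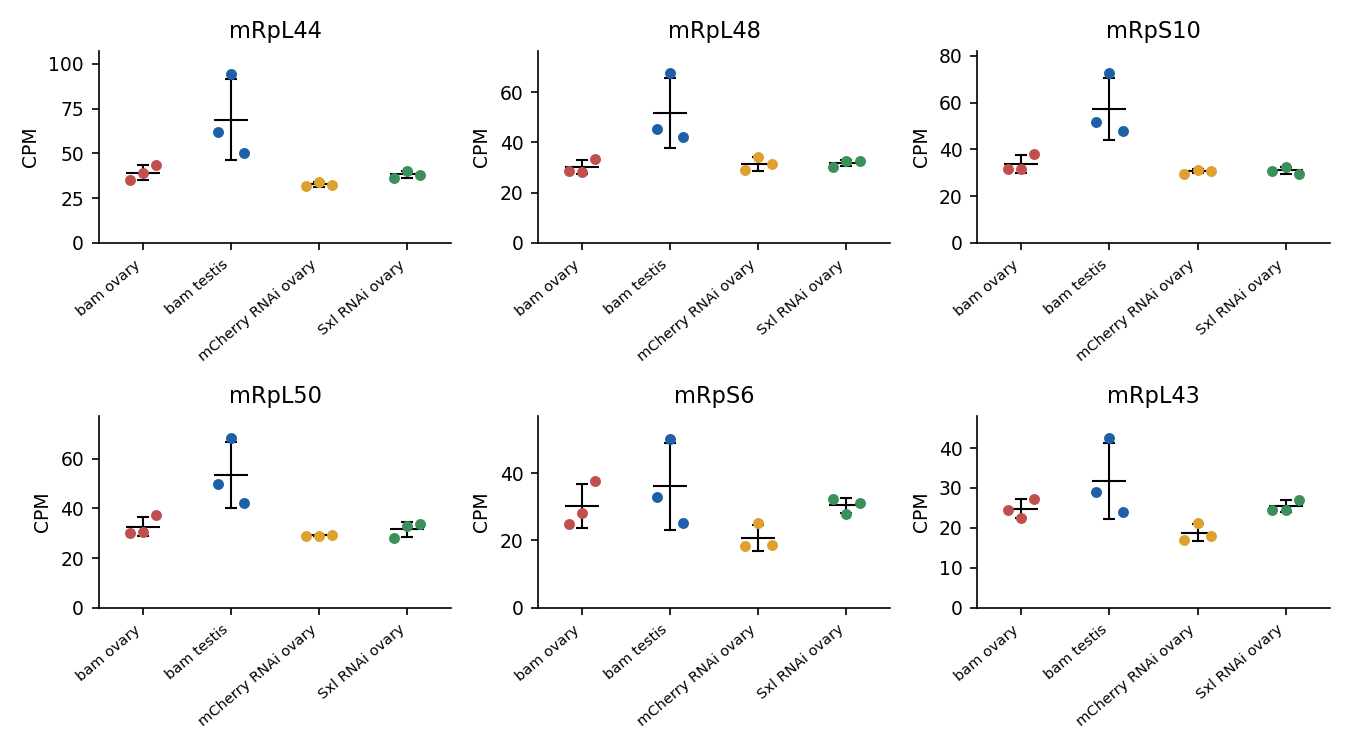
CPM in each library (points) with the mean and SD of each group (bar and whiskers, n = 3) for the 4 genes that rose in bam testes over bam ovaries and for mRpS6 and mRpL43, which had the smallest p in the Sxl RNAi comparison. For mRpL44, mRpL48, mRpS10 and mRpL50 all testis points lie above all ovary points, and for mRpS6 and mRpL43 the Sxl RNAi points lie above the mCherry RNAi points but overlap the bam ovary points.

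The sign of the fitted log2 fold change differed largely by chromosome. Males have a single X chromosome and females a pair, and the part of X copy number in this split was not tested. Of the 11 X-linked genes, 10 had a negative fitted log2 fold change of testes over bam ovaries, with a median of -0.23 and a range of -0.44 to 0.092, and of the 59 detected autosomal genes 56 had a positive one, with a median of 0.37. The same direction was seen over all genes: the median was -0.41 over 1656 X-linked genes and 0.097 over 7783 genes on autosomal arms, and among those with transcripts under 1000 nt it was -0.19 and 0.33. None of the 11 X-linked genes passed the test, and all 4 calls were autosomal. Over all genes, 188 of 1656 X-linked genes were higher and 472 lower. On autosomal arms, 1380 of 7783 were higher and 1054 lower.

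mRpS30, which gave more reads than any other of the 71 genes, was the only one whose testis values all lay below the bam ovary values. It stood at 102, 113 and 106 CPM in bam ovaries, 86.3, 94.5 and 73.0 in testes, 94.2, 95.8 and 97.6 with mCherry RNAi and 95.5, 108 and 109 with Sxl RNAi (testes over bam ovaries, log2 fold change -0.35, SE 0.13, adjusted p = 0.0865 by edgeR). In all, the CPM of testes and bam ovaries did not overlap for 6 genes that were higher in testes and 1 that was lower, or 8.57% and 1.43%, against 24.0% and 24.2% of all genes. The 6, named from their values, were the 4 called genes with mRpL12 and mRpS18B. mRpL16, an X-linked gene for a large subunit protein with a bacterial counterpart, had the most negative fold change. It stood at 69.2, 71.6 and 85.5 CPM in bam ovaries and 55.1, 72.6 and 41.3 in testes, so the groups overlapped through testis replicate 2 (log2 fold change -0.44, SE 0.20, adjusted p = 0.144 by edgeR).

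**Figure D4:**
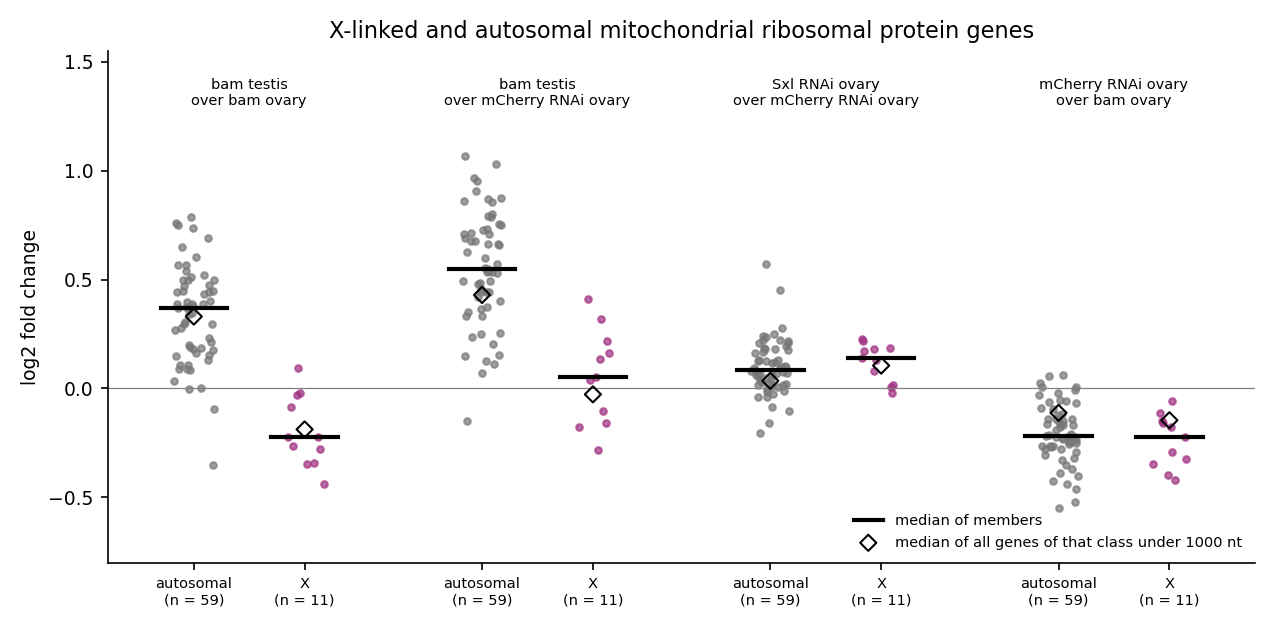
Log2 fold change of each of the 70 genes (points) in 4 comparisons, split into 59 autosomal and 11 X-linked genes, with the median of each class (bar) and the median of all genes of that chromosome class with transcripts under 1000 nt (diamond). In testes over bam ovaries the medians are 0.37 and -0.23, and in testes over mCherry RNAi ovaries they are 0.55 and 0.052. The RNAi comparison and the comparison of the control ovaries also have medians of like sign for both classes.

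The difference between testes and bam ovaries moved with transcript length over all genes. The median log2 fold change was 0.27 for genes with transcripts under 1000 nt, 0.15 for 1000 to 2000 nt, -0.074 for 2000 to 4000 nt and -0.32 for 4000 nt or more, and the fitted slope was -0.34 per doubling of length. With the trend on length removed from each library, the median of the 70 genes changed sign to -0.16, against -0.001 over all genes and -0.21 over all genes under 1000 nt. In that fit 6 of the 70 were higher and 26 lower, or 8.57% and 37.1%, against 26.5% and 24.9% of all genes. All 11 X-linked genes were among the 26 (median -0.57), while the autosomal genes had a median of -0.096. Over all genes in that fit, 749 of 1656 X-linked genes and 1591 of 7783 on autosomal arms were lower. The 4 genes named above remained higher, with log2 fold changes of 0.45 for mRpL44, 0.34 for mRpL48, 0.31 for mRpS10 and 0.24 for mRpL50 (adjusted p = 0.0123, 0.0167, 0.025 and 0.0423 by edgeR). So the direction of the group as a whole depended on this step, and that of these 4 genes did not.

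**Figure D5:**
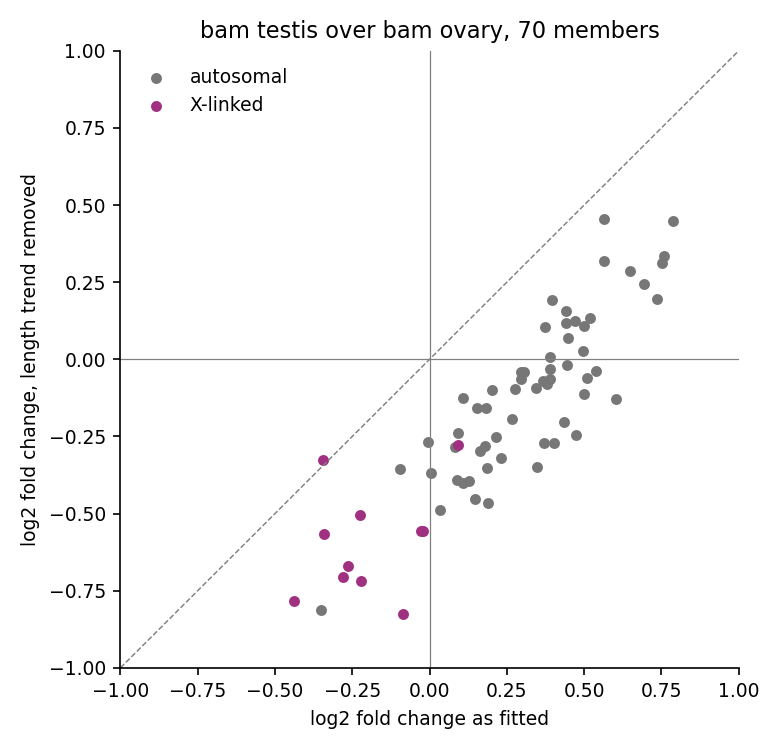
Log2 fold change of bam testes over bam ovaries of the 70 genes as fitted (horizontal axis) and with the trend on transcript length removed (vertical axis), autosomal genes in grey and X-linked genes in purple, with the line of equality dashed. All but a single X-linked gene lie below the line: the median moves from 0.30 to -0.16, and all 11 X-linked genes lie below 0 on the vertical axis.

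Set against the mCherry RNAi ovaries instead, the log2 fold change was positive for 65 of the 70 genes, with a median log2 fold change of 0.49 against 0.014 over all genes. Of the 70, 24 were higher in edgeR's test at an adjusted p under 0.05 and 0 lower, or 34.3%, where 41.7% of all genes were called, 20.9% higher and 20.8% lower. The 24 were all autosomal, 16 mRpL and 8 mRpS genes. X-linked genes had a median of 0.052, with 7 of 11 positive, and the autosomal ones 0.55. Over all genes with transcripts under 1000 nt the median was 0.37, with 540 of 1739 higher. Those of them on autosomal arms had a median of 0.43, with 487 of 1471 higher. Over all X-linked genes the median was -0.37, with 195 of 1685 higher. CPM did not overlap for 32 genes higher in testes (45.7%, against 27.1% of all genes) and 0 lower. This comparison and the previous one use the same testes.

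The largest of the 24 was mRpL44 again: its log2 fold change was 1.06 (SE 0.21, adjusted p = 0.00812 by edgeR), beside 0.79 over the bam ovaries. mRpL10, which anchors the stalk formed by mRpL12, stood at 57.7, 70.0 and 41.1 CPM in testes, 25.1, 31.0 and 26.3 in mCherry RNAi ovaries, 30.8, 31.1 and 44.4 in bam ovaries and 33.6, 32.0 and 29.8 in Sxl RNAi ovaries. Testes exceeded both groups of RNAi ovaries in every library but overlapped bam ovary replicate 3 (log2 fold change over mCherry RNAi ovaries 1.03, SE 0.19, adjusted p = 0.00661). mRpS16, mRpL52, mRpS10, mRpL42, mRpL50 and mRpL9 followed with log2 fold changes of 0.97, 0.95, 0.91, 0.87, 0.87 and 0.86 (adjusted p from 0.00479 to 0.0277 by edgeR). The count of 24 fell to 5 without testis replicate 1, to 4 without mCherry RNAi ovary replicate 1 and to 5 without its replicate 3. It rose to 38 without testis replicate 3. Over all genes the number higher was 2096 in the main fit and 1316, 1216, 1330 and 2366 in these fits. Without testis replicate 2 and mCherry RNAi ovary replicate 2 together, chosen once the data had been seen, the count was 29, against 21.0% of all genes higher. With the length trend removed, 22 of the 70 were higher and 10 lower (32.5% and 24.0% of all genes). The median of the 70 was then 0.099, against 0.1 over all genes, so it did not exceed that of all genes in this fit.

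The second design of the study asked what knockdown of Sxl changes in bam mutant ovaries, by comparing Sxl RNAi with mCherry RNAi ovaries. None of the 70 genes passed edgeR's adjusted threshold, where 0.209% of all 10059 genes did, and DESeq2 called 0 as well. At an unadjusted p under 0.05, 6 of the 70 passed, or 8.57%, against 11.7% of all genes. The values leaned upward: 59 of 70 fitted log2 fold changes were positive, higher in Sxl RNAi ovaries (51.2% over all genes), with a median log2 fold change of 0.095 against 0.007 over all genes. This was the most precise of the comparisons, with a median SE of 0.11, and for all 70 genes the 95% interval lay within 1 log2 unit of 0. CPM did not overlap for 8 genes that were higher and 2 that were lower, or 11.4% and 2.86%, against 8.45% and 9.32% of all genes.

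The 4 smallest p-values belonged to mRpL43, mRpS6, mRpS2 and mRpL44. mRpL43, a mitochondria-specific protein of the large subunit, stood at 24.6, 24.6 and 27.1 CPM in Sxl RNAi ovaries, 17.1, 21.1 and 18.1 in mCherry RNAi ovaries, 24.4, 22.6 and 27.3 in bam ovaries and 29.0, 42.5 and 24.1 in testes. The mCherry RNAi ovaries were below every other library, and the Sxl RNAi values lay within the bam ovary range (Sxl over mCherry RNAi, log2 fold change 0.45, SE 0.11, adjusted p = 0.205 by edgeR). mRpS6, a small subunit protein with a bacterial counterpart, had the largest change of the 70, at 32.2, 28.0 and 31.2 CPM with Sxl RNAi, 18.2, 25.2 and 18.7 with mCherry RNAi, 24.9, 28.1 and 37.7 in bam ovaries and 32.8, 50.2 and 25.1 in testes (Sxl over mCherry RNAi 0.57, SE 0.15, adjusted p = 0.217). Here too the Sxl RNAi values lay inside the bam ovary range, and above all mCherry RNAi values. mRpS2 stood at 37.4, 40.8 and 39.6 against 30.8, 33.2 and 34.0 CPM (0.28, SE 0.085, adjusted p = 0.28), and the change of mRpL44 was 0.23 (SE 0.085, adjusted p = 0.362). The 2 genes with all Sxl RNAi values below the mCherry RNAi values were mRpL12 and mRpS29. The size of the lean depended on single mCherry RNAi libraries. Without replicate 2, in which 65 genes were highest, 66 of 70 were positive and the median was 0.20; without replicate 1 these were 47 and 0.035, and without replicate 3 they were 48 and 0.050. None of the 70 genes passed edgeR's adjusted threshold in any of these 3 fits.

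The mCherry RNAi ovaries and the bam ovaries, the 2 control groups, were compared to show how far genes differ between ovaries that share the bam mutation. The fitted log2 fold change was negative, lower in mCherry RNAi ovaries, for 65 of the 70 genes, with a median log2 fold change of -0.22 against -0.006 over all genes and -0.12 over all genes with transcripts under 1000 nt. None of the 70 passed edgeR's adjusted threshold, where 6.11% of all 9940 genes did; 8 had an unadjusted p under 0.05, or 11.4% against 23.1% of all genes, and DESeq2 called 0. CPM did not overlap for 12 genes, all lower in mCherry RNAi ovaries, or 17.1%, against 14.3% of all genes. X-linked and autosomal genes had medians of -0.22 each. Markers of other cell types also differed between these ovaries: the 5 fat body markers summed to 1040 to 1230 CPM in bam ovaries and 249 to 479 in mCherry RNAi ovaries, and the 8 follicle cell, yolk and eggshell markers to 6260 to 7090 and 4080 to 5500. Their part in the 65 negative values was not tested.

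The 4 smallest p-values were those of mRpL43 (log2 fold change -0.40, SE 0.13, adjusted p = 0.128), mRpS16 (-0.52, SE 0.17, adjusted p = 0.133), mRpL9 (-0.46, SE 0.16, adjusted p = 0.152) and mRpL52 (-0.44, SE 0.16, adjusted p = 0.152 by edgeR). mRpS16 stood at 30.3, 33.3 and 44.9 CPM in bam ovaries and 22.0, 28.4 and 25.4 in mCherry RNAi ovaries. The groups did not touch for any of these 4 genes. Bam ovary replicate 3 and mCherry RNAi ovary replicate 2 were also left out together, chosen once the data had been seen. Then 12 genes were lower and 0 higher, against 9.02% and 9.0% of all genes. With the length trend removed 13 were lower and 0 higher, against 10.7% and 6.41% of all genes. The median was -0.17 and -0.23 in these fits, against 0.006 and -0.085 over all genes. Without bam ovary replicate 3 alone it was -0.057, with 24 of 70 values positive, and without mCherry RNAi ovary replicate 2 alone it was -0.32. The comparison with Sxl RNAi shares the mCherry RNAi ovaries, so the 65 negative values here and the 59 positive values there were not independent.

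Whether the effect of sex differed from that of Sxl RNAi was tested as a contrast over all 12 libraries. The effect of sex was the larger for 53 of the 70 genes. Their median difference was 0.20 on the log2 scale, against 0.033 over all genes and 0.22 over all genes with transcripts under 1000 nt. By edgeR, 3 of the 70 passed, or 4.29%, all with a larger value for sex, where 25.6% of all 10382 genes passed. They were mRpL48 (difference 0.77, SE 0.24, adjusted p = 0.0351), mRpS10 (0.75, SE 0.22, adjusted p = 0.0256) and mRpS29 (0.63, SE 0.20, adjusted p = 0.0422), a GTP-binding protein of the small subunit that in mammals is also known as death-associated protein. mRpS29 stood at 64.8, 68.7 and 83.6 CPM in bam ovaries, 92.2, 116 and 80.5 in testes, 70.3, 78.1 and 70.1 with mCherry RNAi and 61.6, 62.5 and 63.8 with Sxl RNAi. Its mean was higher in testes and lower in Sxl RNAi ovaries than in the respective controls, and testis replicate 3 lay below bam ovary replicate 3. mRpL23, a protein of the exit tunnel, had the largest difference of the 70 and did not pass (0.80, SE 0.31, adjusted p = 0.0856). The 11 X-linked genes had a median difference of -0.33 and the autosomal genes 0.24. Over all genes these medians were -0.44 and 0.13, and among those with transcripts under 1000 nt -0.27 and 0.28. With the length trend removed 2 genes were higher and 17 lower, against 16.5% and 18.7% of all genes. The median was then -0.21, against -0.01 over all genes, so the direction over the group depended on this step. Without the 3 libraries in which most genes were highest, 5 were higher and 7 lower, against 12.8% and 16.1% of all genes. The median was then -0.019, against 0.016 over all genes. These libraries were chosen once the values of the 70 genes had been seen, and none was of Sxl RNAi ovaries. So this fit cannot decide whether the direction was stable. Named after their values were seen, 6 of the 7 genes lower in the fit without the 3 libraries were X-linked: mRpL16, mRpL30, mRpL33, mRpL38, mRpL49 and mRpS30. Shares by chromosome over all genes were not computed for that fit. In the contrast on all 12 libraries, where 0 of the 70 were lower, 417 of all 1749 X-linked genes and 951 of all 8316 on autosomal arms were lower.

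Genes that work with the mitochondrial ribosome were compared between testes and bam ovaries over fixed lists, whose counts are to be read against the 16.4% of all genes that were higher and the 16.3% that were lower. A pair of its proteins, tko and bonsai of the small subunit, carry other names; bonsai was higher in testes than in bam ovaries (105 ± 29.6 against 64.2 ± 3.79 CPM, n = 3, log2 fold change 0.70, SE 0.19, adjusted p = 0.0321 by edgeR), and the X-linked tko stood at 35.0 ± 13.1 against 43.6 ± 10.7 CPM (-0.34, adjusted p = 0.404). Of 8 tested translation factors 1 was higher and 0 lower, the initiation factor mIF3 (0.79, SE 0.15, adjusted p = 0.00881). Of 16 tested genes listed under mitochondrial tRNA synthetases, a family that charges the tRNAs that the ribosome reads, 4 were higher and 1 lower. Among them were TrpRS-m (0.59, adjusted p = 0.00847) and ArgRS-m (0.63, adjusted p = 0.011), and the lower gene was the X-linked LysRS (-0.62, adjusted p = 0.0156), whose product also serves the cytosol. ArgRS-m overlaps mRpS9 on the opposite strand, over 25.1% of the exon bases of mRpS9.

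Of 11 tested factors that maintain or express the mitochondrial genome, 1 was higher, mtDNA-helicase (0.72, adjusted p = 0.00649), and 1 lower, the X-linked Lrpprc2 (-0.72, adjusted p = 0.00654). Of 11 tested regulators of mitochondrial biogenesis 0 were higher and 1 lower, the X-linked transcription factor ewg (-1.29, SE 0.37, adjusted p = 0.0378), the fly relative of nuclear respiratory factor. Of 2 matched assembly factors 1 was higher, the protease subunit gene Afg3l2 (0.44, adjusted p = 0.0381). All 3 lower genes named here are on the X chromosome. Over all genes, 472 of 1656 X-linked genes were lower, and 1054 of 7783 on autosomal arms. In the Sxl RNAi comparison and in that of the control ovaries, edgeR called 0 genes of these 6 lists at an adjusted p under 0.05.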

How the data were processed

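Gonad RNA of 12 libraries was analysed from counts of reads per gene, deposited by the authors as 1 file per library. Per the labels' protocols, 200 ng of RNA went into each TruSeq v2 library. The submitters' processing notes list TopHat2 2.1.1, Bowtie2 2.2.9, HTSeq 0.9.1, FastQC and DESeq, with the build BDGP6. How HTSeq treated strand and overlapping genes is not stated. Groups and replicate numbers came from the sample titles. HTSeq's summary lines (12.1% to 17.1% of the reads) were left out. Symbols matched 17253 of 17559 gene identifiers, and transcript lengths, positions and exon overlaps were read from Ensembl's BDGP6 annotation, possibly not the release used in counting. Every pair of replicates differed beyond counting noise (lowest ratio of chi-square to degrees of freedom 9.98), and all were kept. Floors are 3 counts and cover counting error only.

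Each comparison used edgeR 4.0.16 (R 4.3.3) on its own 6 libraries: TMM scaling, filterByExpr, robust quasi-likelihood test, and Benjamini-Hochberg adjustment over all genes tested with 0.05 as the threshold. The difference contrast used all 12. Intervals are 95% with the t quantile of edgeR's degrees of freedom. CPM for levels were scaled over all 12 libraries. The length trend was removed with an offset from a loess curve (span 0.5) of each library's deviation on log2 transcript length. Single values per library were compared by exact permutation (scipy 1.17.1). The scripts were tested on simulated counts.

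The members and the lists of related and marker genes were chosen with earlier results of these data known. Named genes are, per comparison, up to 8 called members per direction by size, or the 4 smallest p where fewer than 4 were called; the 4 highest and 4 lowest levels; undetected members; the mRpS18 family; the 4 largest differences of effect; and up to 3 genes per related list by p. Alternatives were DESeq2 1.42.0, other scalings, filters, thresholds and fits, the replicate number as a block, the length trend and leaving out libraries. Sequences were not used here.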

Additional observations from a re-analysis of the deposited data

Results flagged for a closer look

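For 3 genes the effect of sex in bam mutant gonads and the effect of Sxl RNAi in bam mutant ovaries differed in a test of the difference itself (edgeR quasi-likelihood contrast over 12 libraries, Benjamini-Hochberg adjustment over 10382 genes). The difference was 0.77 for mRpL48 (SE 0.24, adjusted p = 0.0351), 0.75 for mRpS10 (SE 0.22, adjusted p = 0.0256) and 0.63 for mRpS29 (SE 0.20, adjusted p = 0.0422), each on the log2 scale. The share called among the 70 genes, 4.29%, was below the 25.6% of all genes. Over the alternatives run, the adjusted p ranged from 0.0124 to 0.0678 for mRpL48, from 0.00637 to 0.0751 for mRpS10 and from 0.0154 to 0.0694 for mRpS29. With the length trend removed mRpS29 passed (adjusted p = 0.0326) and the other two did not.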

How the results depend on the processing

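Of the 4 genes higher in testes than in bam ovaries, 2 were left under upper-quartile scaling and 0 at an adjusted p under 0.01. Over all 9738 genes, 1348 and 840 were higher in these. With all 12 libraries in one fit 18 were called (17 higher, 1 lower), against 2098 higher and 2150 lower of all 10382 genes. With the length trend removed 32 were called (6 higher, 26 lower) and the median became -0.158. Without bam ovary replicate 3 and testis replicate 2 the count was 14. Leaving out single replicates gave 0 to 10 calls, against 1924 to 3539 over all genes, and medians of 0.096 to 0.45. For the control ovaries the count of 0 became 13 with the length trend removed and 12 without bam ovary replicate 3 and mCherry RNAi ovary replicate 2; single replicates left it at 0, with medians of -0.321 to -0.057. For testes over mCherry RNAi ovaries the count of 24 was 4 to 38 without single replicates, with medians of 0.295 to 0.63. With the length trend removed the median was 0.099, against 0.1 over all genes. For Sxl RNAi the count stayed at 0 in all 15 alternatives, with medians of 0.035 to 0.195. For the difference of effects, 19 genes were called and the median was -0.213 with the length trend removed. Without the 3 libraries, chosen once the data had been seen, these were 12 and -0.019. The difference in the log2 ratio of large to small subunit changed sign when medians replaced sums, to 0.094 for testes over bam ovaries (exact permutation p = 0.1), 0.085 for testes over mCherry RNAi ovaries (p = 0.1), 0.011 for Sxl RNAi (p = 0.8) and 0.009 for the control ovaries (p = 0.8, exact permutation tests throughout, 0.1 being the smallest possible). Calls over all genes ranged over the alternatives from 1696 to 5000 (main 3186) for sex, 3 to 296 (21) for Sxl RNAi, 93 to 1808 (607) for the control ovaries and 2701 to 5665 (4177) for testes over mCherry RNAi ovaries. With the replicate number as a block, 0 genes were called in the sex comparison and 45 in testes over mCherry RNAi ovaries; the numbers were not taken as pairs, since in no comparison did all same-numbered libraries deviate together (correlations 0.04, -0.35 and -0.56 between testes and bam ovaries, -0.04, 0.40 and 0.30 between testes and mCherry RNAi ovaries). The block changed no other count of called members by over 1.5 times. Over all genes it left 1696 calls for sex, 3 for Sxl RNAi and 93 for the control ovaries. In testes over mCherry RNAi ovaries, 2701 of all genes were higher and 2619 lower with the block. The causes of these shifts were not tested. The thinnest counts of detected members were those of mRpS21 and mRpS24, with 68 and 79 reads in their shallowest library.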
